A study of Mus musculus with 3 samples.

Results

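Hmgcs1, Sqle, Idi1, Fdps, Fdft1, Lss, Insig1 and Srebf2 make up a set of 8 genes of cholesterol synthesis and its control, chosen by symbol from the 31058 rows of the gene table, in which each was present. They were measured in cells of glomeruli, the filters of the kidney, by droplet-based 3′ RNA sequencing in which each molecule carries an identifier (UMI), in 1 library from each of 3 healthy C57Bl/6 mice. The libraries came from a male mouse with Pax2.rtTA, TetO.Cre and R26.Confetti and from a female mouse with the same alleles plus ERalphaKO (RPC-ERαKO in the labels, here female ERaKO), and the third came from a female mouse with the 3 shared alleles only. All 3 mice were given doxycycline at 20 days of age and were followed to 90 days. The Pax2.rtTA driver with TetO.Cre makes the recombinase under doxycycline in cells where the Pax2 driver is active, so the controls carry the driver, the recombinase and the colour reporter as well. Each group is 1 mouse and 1 library (n = 1), so the spread between animals is unknown, no test was possible, and every interval below is a 95% interval of counting error only.

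Cells make cholesterol from acetyl-CoA through mevalonate, isoprenoid units, squalene and lanosterol. When sterols run low in the membrane of the endoplasmic reticulum, the protein encoded by Srebf2 is released from its retention by Insig proteins, cut in the Golgi and carried to the nucleus, where it activates the genes of this pathway and of cholesterol uptake. Along the pathway, Hmgcs1 makes hydroxymethylglutaryl-CoA, Idi1 interconverts the isoprenoid units, and Fdps joins them into farnesyl diphosphate. Fdft1 then makes squalene, Sqle oxidises it in a rate-limiting step, and Lss closes the ring to lanosterol. Insig1 is itself a target of the pathway's transcription factors and acts as the brake. None of the 8 genes is a receptor for cholesterol uptake, and those are given with the other genes of the pathway.

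In GRCm38, by the GENCODE M21 annotation, Hmgcs1 spans chr13:119690379-119708260 on the plus strand, Idi1 chr13:8885501-8892451 (plus), Fdps chr3:89093588-89101959 (minus) and Fdft1 chr14:63145150-63179578 (minus). Sqle spans chr15:59315077-59331192 (plus), Lss chr10:76531588-76557138 (plus), Insig1 chr5:28071363-28078662 (plus) and Srebf2 chr15:82147181-82205379 (plus). Fdps overlaps Gm43738 and Gm22935 on its own strand, and Srebf2 overlaps Gm49502 and Mir33 on its own strand. Fdft1 overlaps Ctsb, which encodes cathepsin B, and Idi1 overlaps Gm48574, both on the opposite strand. Hmgcs1 and Lss each overlap an antisense gene. Whether counting used strand is not given in the sources used here, so reads of overlapping genes may not have been told apart, and the values of those genes are uncertain to that extent.

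RefSeq promoters of GRCm38.p6, 250 bases before to 50 after the annotated start, were at hand for 5 of the 8 genes (Hmgcs1, Idi1, Lss, Insig1 and Srebf2). The 4 shown, all on the plus strand, belong to the first enzyme, to the gene with the widest range between libraries (Idi1), and to the sensor and the transcription factor. They cover chr13:119690101-119690400 for Hmgcs1, chr13:8885356-8885655 for Idi1, chr5:28071162-28071461 for Insig1 and chr15:82147019-82147318 for Srebf2. Capitals mark the core of the sterol regulatory element (TCACCCCA) and the CCAAT box, which reads ATTGG where it lies on the other strand.
Hmgcs1: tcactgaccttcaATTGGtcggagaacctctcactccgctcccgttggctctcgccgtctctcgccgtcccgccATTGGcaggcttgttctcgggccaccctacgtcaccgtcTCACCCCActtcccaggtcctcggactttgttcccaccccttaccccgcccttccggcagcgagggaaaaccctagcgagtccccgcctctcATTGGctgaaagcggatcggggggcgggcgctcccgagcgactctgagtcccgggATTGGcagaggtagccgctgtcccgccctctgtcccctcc
Idi1: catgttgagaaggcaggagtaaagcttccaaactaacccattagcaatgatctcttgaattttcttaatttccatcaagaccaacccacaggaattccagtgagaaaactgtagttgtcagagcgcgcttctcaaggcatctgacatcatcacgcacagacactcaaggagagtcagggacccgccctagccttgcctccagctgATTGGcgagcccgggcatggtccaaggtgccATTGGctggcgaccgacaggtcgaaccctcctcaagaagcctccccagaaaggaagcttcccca
Insig1: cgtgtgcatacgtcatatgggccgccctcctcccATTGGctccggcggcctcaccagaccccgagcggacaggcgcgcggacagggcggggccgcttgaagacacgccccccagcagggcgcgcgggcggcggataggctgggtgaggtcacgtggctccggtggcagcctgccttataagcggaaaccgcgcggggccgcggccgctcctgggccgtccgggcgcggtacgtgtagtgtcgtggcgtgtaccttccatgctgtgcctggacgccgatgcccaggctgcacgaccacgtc
Srebf2: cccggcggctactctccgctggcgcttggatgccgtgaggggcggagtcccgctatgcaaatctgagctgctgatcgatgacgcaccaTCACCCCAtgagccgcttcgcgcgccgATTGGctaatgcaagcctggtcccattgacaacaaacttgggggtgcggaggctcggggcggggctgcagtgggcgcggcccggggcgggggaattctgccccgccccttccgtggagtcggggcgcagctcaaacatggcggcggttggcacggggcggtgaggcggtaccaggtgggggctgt
Searched on both strands, the core TCACCCCA was present in the Hmgcs1 promoter (bases 114 to 121) and in that of Srebf2 (bases 89 to 96), and 1.57% of 32544 promoters of the same length hold it. The CCAAT box was present in all 5, with 4 matches in Hmgcs1, 2 in Idi1 and 1 each in Lss, Insig1 and Srebf2, all on the minus strand, and 37.4% of promoters hold it. CACGTG, the E-box, which reads the same on both strands, was present only in Insig1 among the 5 (bases 150 to 155) and is held by 7.17% of promoters. These motifs do not overlap one another in the printed windows. They are matches of letters, not sites shown to be bound, and no data on binding were part of the study.

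The libraries held 44585342 UMIs in 4244 barcodes (male), 47522141 in 3986 (female ERaKO) and 44942380 in 3555 (female). Kept cells numbered 3221, 2471 and 2847 in that order, with median depths of 7325, 8039 and 8857 UMIs. Pairs of libraries shared 4 to 8 barcodes. Over 25% mitochondrial UMIs were found in 21.0% of male, 34.0% of female ERaKO and 17.7% of female barcodes, so the female ERaKO library lost the most cells to that filter. Esr1, the targeted gene, had 84, 122 and 73 UMIs over the kept cells in the same order. Which part of Esr1 is deleted is not given, and a 3′ tag outside that part checks nothing. Cells were grouped into classes by clusters and fixed markers, and the class names stand for podocyte-like cells and so on. Levels are UMIs summed over a class, per 1e6 UMIs of that class (CPM). Since a level is a share of the RNA counted, it does not tell more RNA of a gene from less of the other genes.

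Proximal tubule cells, which reabsorb filtered solutes and enter a glomerular preparation as fragments, had the highest summed level of the 8 genes in every library, and podocytes, the epithelial cells that wrap the capillaries, the lowest. The sum stood at 736 CPM in male (95% interval 696 to 777), 608 in female ERaKO (580 to 637) and 497 in female proximal tubule cells (465 to 532). In podocytes it was 114 in male (108 to 121), 119 in female ERaKO (111 to 127) and 122 in female cells (117 to 128). Podocytes were last of 14, 11 and 12 classes with at least 30 cells in the male, female ERaKO and female libraries. Between these ends, the 3 endothelial subtypes and the parietal epithelial cells of Bowman's capsule ranged from 214 to 402 CPM, and mesangial cells from 160 to 166 CPM. Mononuclear phagocytes, the macrophage and dendritic lineage, had 286, 271 and 312 CPM in male, female ERaKO and female cells. The first place of the proximal tubule rests on Hmgcs1 in the female libraries. Without that gene the sum was 289 CPM in male, 137 in female ERaKO and 114 in female proximal tubule cells, next to 264, 282 and 214 CPM in Sox17 Fbln5 endothelial cells of the same libraries. In several neighbouring classes of the order with all 8 genes the counting intervals overlap, as in Sox17 Fbln5 endothelial and parietal cells of the male library (315 to 356 and 293 to 344 CPM).

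**Figure D1:**
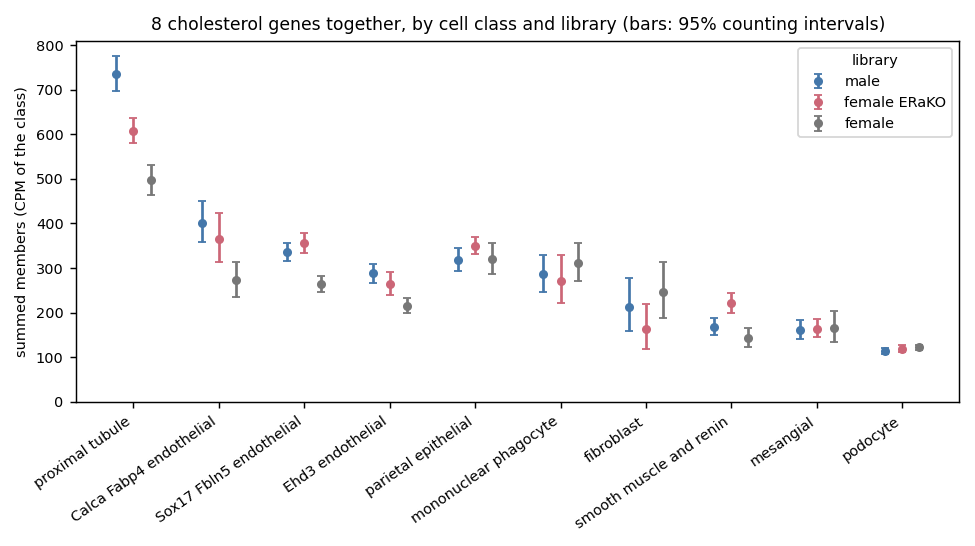
Summed CPM of the 8 genes (vertical axis) in 10 cell classes (horizontal axis), with 1 point for each library and bars for 95% counting intervals. Proximal tubule cells are highest in all 3 libraries (736 CPM in male, 608 in female ERaKO and 497 in female cells) and podocytes lowest.

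The members did not share 1 order of classes. Hmgcs1, at the head of the pathway, had 446 CPM in male, 471 in female ERaKO and 383 in female proximal tubule cells, and 35.5, 39.4 and 32.3 CPM in podocytes of the same libraries. In all 3 libraries its interval in proximal tubule cells lay above that in every other of the 10 plotted classes. Sqle was highest in parietal epithelial cells, with 78.7 CPM in male, 82.8 in female ERaKO and 82.3 in female cells, and proximal tubule cells came next with 51.8, 52.1 and 50.3 CPM. Podocytes, of the same epithelial lineage as the parietal cells, held only 2.98, 3.25 and 2.44 CPM. A UMI of Sqle was found in 58.2%, 65.4% and 55.7% of parietal cells, at median depths of 9324.5, 11839 and 9031 UMIs, against 2.73%, 2.83% and 2.7% of podocytes at 7794, 7415 and 9197 UMIs. With every cell thinned to 4000 UMIs the parietal shares were 23.8%, 27.4% and 29.1% and the podocyte shares 1.41%, 1.97% and 0.569%. The share that free RNA gives was not measured, and the podocyte shares are an upper limit to it in podocytes.

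Fdps and Fdft1, the middle enzymes, varied less between classes. Fdps ranged from 9.25 CPM in female proximal tubule cells to 54.0 CPM in female Calca Fabp4 endothelial cells, over the 10 plotted classes. Fdft1 stood between 4.07 CPM (male fibroblasts, 1 UMI) and 23.3 CPM (female ERaKO parietal cells), with wide intervals in the small classes. Lss, the cyclase, had few UMIs in most classes. It had 10.3, 12.2 and 11.3 CPM in male, female ERaKO and female podocytes and 11.2, 13.1 and 10.3 CPM in parietal cells. In smooth muscle and renin cells it had 4.98, 6.90 and 13.5 CPM, from 9, 12 and 17 UMIs. In Ehd3 endothelial cells it had 10, 3 and 8 UMIs in the same libraries, and in female ERaKO Calca Fabp4 endothelial cells none, so a change of Lss could not be read there at this depth.

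Insig1, the brake, and Srebf2, the transcription factor, were high in mononuclear phagocytes, though not in them alone. Insig1 had 87.7 CPM in male, 84.1 in female ERaKO and 61.2 in female phagocytes, next to 44.2, 45.7 and 35.4 CPM in Ehd3 endothelial cells and 6.33, 8.53 and 6.71 CPM in podocytes. It had 55.3, 60.9 and 39.6 CPM in Sox17 Fbln5 and 73.1, 38.3 and 34.1 CPM in Calca Fabp4 endothelial cells. In each library its phagocyte interval overlapped that of at least 1 of these 2 subtypes. Srebf2 had 71.0, 65.7 and 86.6 CPM in phagocytes, 57.9, 64.5 and 57.9 CPM in Sox17 Fbln5 endothelial cells and 21.1, 17.5 and 20.4 CPM in podocytes. Parietal cells had 62.8, 76.0 and 51.4 CPM of Srebf2, and were above phagocytes in the female ERaKO library. In each library the intervals of both genes in podocytes lay below those in phagocytes and in the Ehd3 and Sox17 Fbln5 endothelial cells. Fdps was also high in phagocytes, at 33.2, 47.3 and 44.8 CPM in male, female ERaKO and female cells. Hmgcs1 in phagocytes was at 33.2, 39.4 and 49.3 CPM in the same libraries, and 45.5% of its female UMIs there came from 1 cell.

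**Figure D2:**
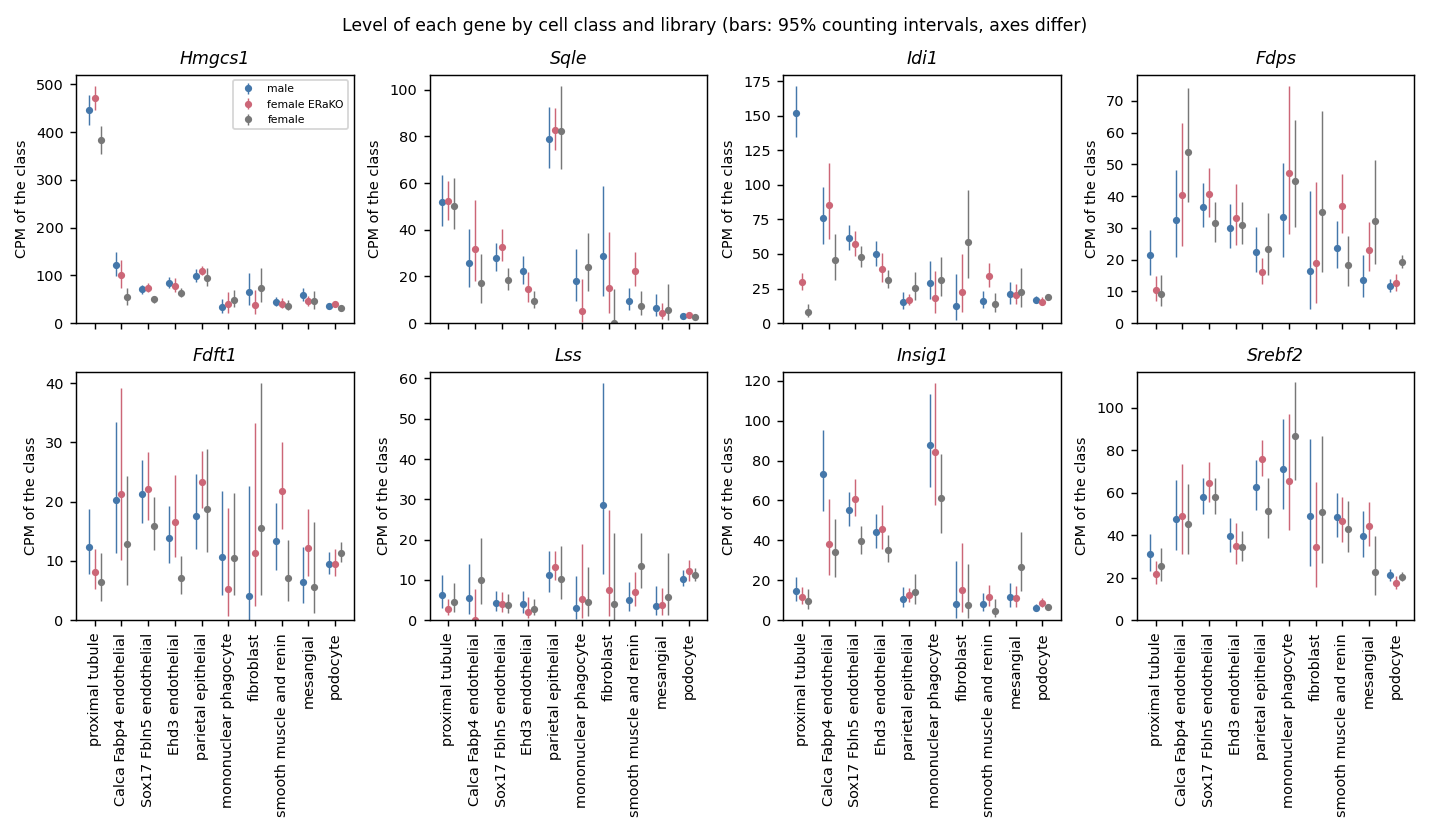
CPM of each of the 8 genes (vertical axis, scaled per panel) in 10 classes (horizontal axis) and 3 libraries, with 95% counting intervals. Hmgcs1 peaks in proximal tubule cells, Sqle in parietal epithelial cells (78.7 CPM in male, 82.8 in female ERaKO and 82.3 in female cells) and Insig1 in mononuclear phagocytes. The phagocyte intervals of Insig1 overlap those of endothelial subtypes.

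Over the 37 sums of a class in a library, the Pearson correlation of log2(CPM + 1) between pairs of the members ranged from −0.46 (Idi1 and Lss) to 0.62 (Fdps and Insig1). Among 5550 other genes with a mean of at least 30 CPM, those most like the mean of the standardised members were Smpdl3a (r = 0.71), Pnp, Klf4, Azin1, Ncoa7, Klf10, Kctd12, Ly6a, Ly6e and 2900026A02Rik (r = 0.65). The 37 points share 3 libraries and differ in depth, and these values are descriptions.

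The comparison of the male with the female library asks how the glomerulus differs by sex, and that of the female ERaKO with the female library what the knockout changes. Both use the same female library, so a female value that is off by chance moves both, and only the values of each comparison are given. Genes needed at least 20 UMIs over the 2 libraries compared, 1 CPM was added to each level before the log2 ratio was formed, and a gene is counted as higher or lower at 1.5-fold or more.

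In glomerular capillary endothelial cells, marked by Ehd3, the summed level was 288 CPM in the male and 214 CPM in the female library (log2 ratio 0.43, 0.27 to 0.58), and 264 CPM in the female ERaKO library (0.30, 0.12 to 0.48, over the same female value). Without Hmgcs1 the log2 ratios were 0.43 and 0.30. The sums rest on 394 male, 173 female ERaKO and 370 female cells. Sqle had 22.1 CPM in male and 9.44 CPM in female cells (56 against 28 UMIs), a log2 ratio of 1.15 (0.55 to 1.94). Idi1 had 49.7 CPM in male and 31.0 CPM in female cells (log2 ratio 0.66, 0.28 to 1.08). Fdft1, with 13.8 CPM in male and 7.08 CPM in female cells, had a log2 ratio of 0.87 (0.14 to 1.82). These 3 of the 7 genes with enough counts were higher in the male library and 0 lower, where 4.17% of 10297 genes were higher and 5.15% lower. Idi1 and Fdft1 were under the fold with a pseudocount of 10 CPM (0.54 and 0.48), and Idi1 also with each cell classed by its own markers (0.57) and with cells thinned to 4000 UMIs (0.57), so that it passed in 8 of 11 other ways of processing. The other 4 were Hmgcs1 (0.41, 0.13 to 0.71), Insig1 (0.31), Srebf2 (0.19) and Fdps (−0.05), so the transcription factor and the farnesyl synthase stood closest to the female level. Lss had too few counts.

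Between the female libraries, 1 of 7 genes, Fdft1, was higher in Ehd3 endothelial cells (16.6 CPM in female ERaKO and 7.08 in female cells, log2 ratio 1.12, 0.33 to 2.14) and 0 were lower, beside 6.89% of 9965 genes higher and 5.56% lower. Sqle was just under the fold, with 14.6 CPM in female ERaKO and 9.44 CPM in female cells (0.58, −0.25 to 1.48), and passed it in 6 of 11 other ways of processing. Insig1 (0.36), Idi1 (0.32) and Hmgcs1 (0.30) were above the female level by less, and Fdps (0.09) and Srebf2 (0.03) near it. Immediate early genes, which respond to tissue dissociation, had a median log2 ratio of 0.36 in the male comparison and 0.10 in the female ERaKO one, and heat shock genes 0.33 and −0.27. Their part in the result was not tested. The 8 podocyte markers summed to 1492 CPM in male, 1364 in female ERaKO and 1346 in female cells, and Podxl on that list is also an endothelial gene. The 8 red blood cell markers summed to 2599 CPM in male, 71.6 in female ERaKO and 2816.5 in female Ehd3 endothelial cells, which was not tested either.

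The later enzymes of the pathway, which turn lanosterol into cholesterol, were a separate list of 9 genes. In Ehd3 endothelial cells 8 were measured, with a median log2 ratio of 0.64 in the male library (5 higher, 0 lower) and 0.58 in the female ERaKO library (4 higher, 0 lower), beside medians of all genes of −0.00093 and 0.05. Sc5d, a desaturase, stood at 0.70 and 0.61 and Cyp51, the lanosterol demethylase, at 0.59 and 0.70 in the male and female ERaKO comparisons. Of 6 early mevalonate enzymes, 2 were higher in male and 1 in female ERaKO cells, and none lower. Lists of sterol sensing, with 8 measured, and of cholesterol uptake and transfer, with 9, had medians of −0.01 and −0.04 in the male library, with none past 1.5-fold. They had medians of 0.12 and 0.07 in the female ERaKO library, with Scap, which escorts the precursor of the Srebf2 protein, the 1 gene past it (log2 ratio 0.60). Ch25h, which makes the oxysterol 25-hydroxycholesterol, an inhibitor of the pathway, went the other way, with 13.8 CPM in male and 52.9 CPM in female cells (−1.86, −2.51 to −1.4) and 27.8 CPM in female ERaKO cells (−0.90, −1.46 to −0.43). It was the 1 gene lower among the 8 efflux, storage and oxidation genes measured in the male comparison, and the 1 lower of 7, with 1 higher, in the female ERaKO comparison. Scd2, a fatty acid desaturase, was higher in both (0.98 and 0.66), among 4 higher of 10 and 2 higher of 9 fatty acid synthesis genes, with none lower.

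In the Sox17 Fbln5 endothelial cells, of arterial type, 7 of 8 genes lay above the female level in the male comparison (median log2 ratio 0.38) and 8 of 8 in the female ERaKO comparison (median 0.41). The summed level was 335 CPM in male, 356 in female ERaKO and 264 in female cells, on 281, 243 and 236 cells, with log2 ratios of 0.35 (0.21 to 0.48) for male and 0.43 (0.30 to 0.57) for female ERaKO over female. In the male comparison 0 of 8 genes were higher and 0 lower, where 4.16% of 10682 genes were higher and 4.74% lower. Hmgcs1 had 70.5 CPM in male and 49.4 CPM in female cells (0.50, 0.21 to 0.81), Sqle stood at 0.57 and Insig1 at 0.47, all under the fold. Between the female libraries 2 of 8 were higher and 0 lower, beside 5.2% of 10621 genes higher and 5.57% lower. They were Sqle, with 32.8 CPM in female ERaKO and 18.3 CPM in female cells (0.81, 0.36 to 1.34), and Insig1, with 60.9 CPM in female ERaKO and 39.6 CPM in female cells (0.61, 0.28 to 0.96). Insig1 fell under the fold in 3 of 12 other ways of processing. Srebf2 had 57.9 CPM in both the male and the female library and 64.5 CPM in female ERaKO cells. Without the cluster led by Esm1 and Dll4, the female ERaKO ratio of Sqle was 0.87.

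Among the later enzymes in Sox17 Fbln5 cells, 1 of 8 was higher in the male comparison (median of the list 0.24) and 2 of 8 in the female ERaKO comparison (Sc5d at 0.64, median 0.43), with none lower. Ch25h was again below the female level, at −1.26 in male and −0.87 in female ERaKO cells, and Soat1, which stores cholesterol as esters, stood at −0.62 in male cells. They belong to the efflux, storage and oxidation list, with 3 of 8 lower in the male comparison, 1 of 7 lower in the female ERaKO comparison and none higher (medians −0.27 and −0.40). Of 9 fatty acid synthesis genes, 2 were higher in each comparison and none lower (medians 0.38 and 0.39). Fasn, the fatty acid synthase, was at 1.19 and Scd2 at 0.82 in male cells, and in female ERaKO cells Fasn was at 0.72 and Acaca, the carboxylase before it, at 0.87. Immediate early and heat shock medians were 0.34 and 0.45 in the male and −0.21 and −0.09 in the female ERaKO comparison. Smooth muscle and renin markers summed to 129 CPM in male, 1095 in female ERaKO and 380 in female Sox17 Fbln5 cells, and their part in the result was not tested.

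Calca Fabp4 endothelial cells were the smallest of the 3 subtypes, with 95 male, 58 female ERaKO and 82 female cells, and their name rests on 3 of 8 markers. The summed level was 402, 366 and 273 CPM in male, female ERaKO and female cells, with log2 ratios of 0.56 (0.29 to 0.83) and 0.42 (0.12 to 0.73) over female. Without Hmgcs1 these were 0.36 (0.05 to 0.67) and 0.28 (−0.07 to 0.63), and without Idi1 0.52 (0.23 to 0.82) and 0.30 (−0.04 to 0.65), so the interval of the female ERaKO sum includes 0 without either gene. In the male comparison 4 of 7 genes were higher and 1 lower (7.91% of 7596 genes higher, 8.19% lower). Hmgcs1 had 122 CPM in male and 54.0 CPM in female cells (1.16, 0.61 to 1.76) and Insig1 73.1 CPM in male and 34.1 CPM in female cells (1.08, 0.38 to 1.86). Idi1 stood at 0.73 (0.09 to 1.41) and Fdft1 at 0.63 (−0.62 to 2.04, 15 against 9 UMIs). Fdps was the 1 lower gene, at −0.72 (−1.53 to 0.04), and stood at 0.07 when each cell was classed by its own markers, under which Insig1 (0.47) and Fdft1 (0.25) were under the fold. For female ERaKO over female, 3 of 6 genes were higher and 0 lower (9.38% of 7036 genes higher, 9.75% lower). Idi1 stood at 0.89 (0.20 to 1.62) and Hmgcs1 at 0.88 (0.24 to 1.54). Sqle, at 0.87, rests on 15 against 12 UMIs, and its interval (−0.29 to 2.13) includes 0. Hmgcs1 was under the fold with cells thinned to 4000 UMIs (0.57) and Sqle with equal weight per cell (0.52). This class could not be formed, or lacked cells, under a stricter cell filter, with doublets kept and with each library clustered on its own.

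**Figure D3:**
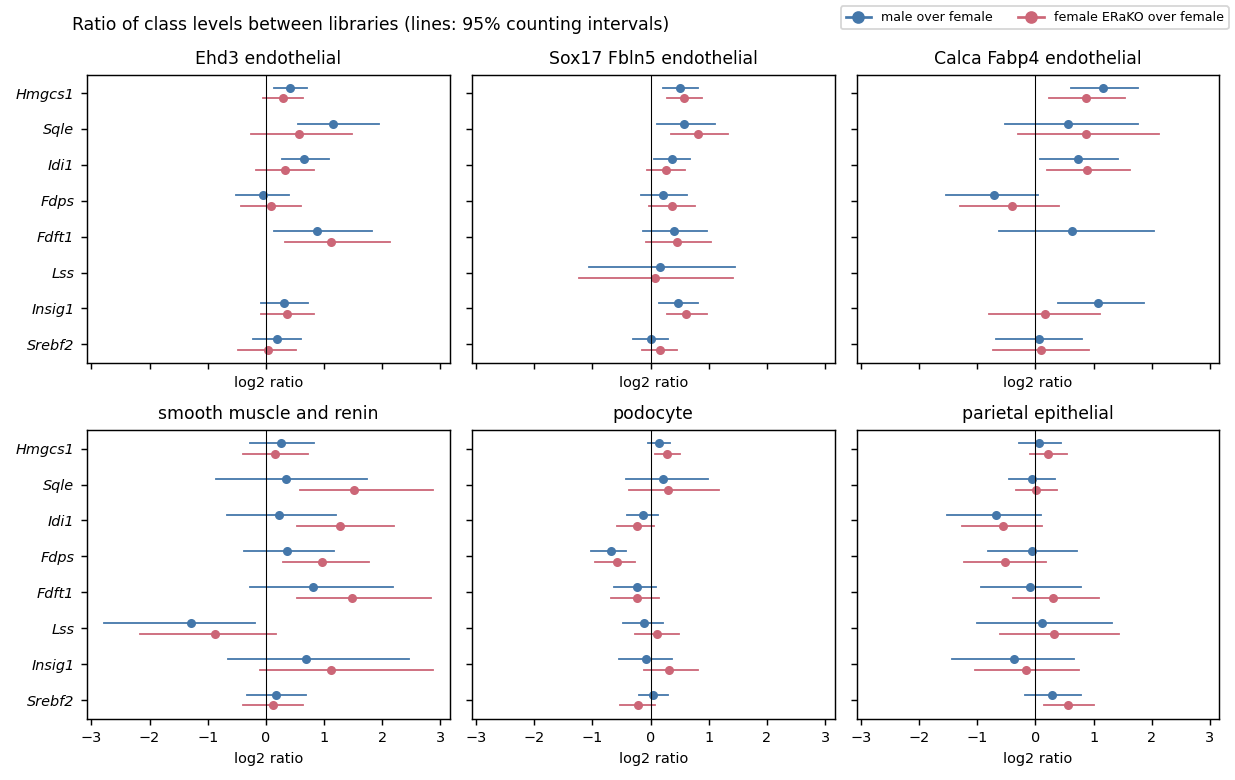
Log2 ratio (horizontal axis) of each of the 8 genes (vertical axis) in 6 classes, male over female in blue and female ERaKO over female in red, with 95% counting intervals as lines; genes under 20 UMIs are left out. In Ehd3 endothelial cells Sqle (1.15) and Fdft1 (0.87) stand right of 0 in the male comparison, and in smooth muscle and renin cells 7 of 8 genes do so in the female ERaKO comparison, while Fdps in podocytes stands left of 0 in both (−0.68 and −0.58).

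Smooth muscle and renin cells of the glomerular arterioles held the most members past the fold between the female libraries. The summed level was 221 CPM in female ERaKO and 144 CPM in female cells (log2 ratio 0.62, 0.36 to 0.88), on 247 and 159 cells, and 5 of 8 genes were higher and 1 lower, where 6.72% of 9424 genes were higher and 11.4% lower. Sqle had 22.4 CPM in female ERaKO and 7.16 CPM in female cells (1.52, 0.58 to 2.88, 39 against 9 UMIs). Fdft1 had 21.8 CPM in female ERaKO and 7.16 CPM in female cells (1.49, 0.54 to 2.84). Idi1 (33.9 and 13.5 CPM, 1.27), Fdps (36.8 and 18.3 CPM, 0.97) and Insig1 (11.5 and 4.77 CPM, 1.11) were the other 3 higher genes, in female ERaKO and female cells. The Insig1 value rests on 20 against 6 UMIs, and its interval (−0.10 to 2.87) includes 0. Lss was the lower one, at −0.88 (−2.17 to 0.18), and Hmgcs1 (0.15) and Srebf2 (0.11) were near the female level. Sqle, Fdft1, Idi1 and Fdps passed the fold in all 12 other ways of processing, and Insig1 in 7 of 10 and Lss in 8 of 10. Cells of the renin cluster numbered 109 in the female ERaKO and 35 in the female library, and smooth muscle and renin markers made up 112364 and 52407 CPM of the class. Within the largest cluster, led by Rergl, with 83 female ERaKO and 95 female cells, the log2 ratios were 1.34 for Sqle, 1.54 for Fdft1, 1.71 for Idi1 and 1.34 for Fdps, larger than in the whole class for 3 of the 4.

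In these cells 10 of 14 immediate early genes were lower in the female ERaKO library (median −1.01), and the part of dissociation in the cholesterol gene values was not tested. Later sterol enzymes had a median of 0.60 (3 of 6 higher, 0 lower), and the efflux, storage and oxidation list −0.65 (0 of 6 higher, 4 lower). Of 5 early mevalonate enzymes 2 were higher and 0 lower (median 0.04), among them the kinase Pmvk at 0.88. Of 9 fatty acid synthesis genes 2 were higher and 1 lower (median 0.27), with Scd2 at 0.80. In the male comparison, 169 CPM in male against 144 CPM in female cells gave a log2 ratio of 0.23 (−0.04 to 0.50), which includes 0. There 2 of 8 genes were higher (Fdft1 at 0.81, Insig1 at 0.69) and 1 lower (Lss at −1.28, 9 against 17 UMIs), beside 6.95% of 9506 genes higher and 7.63% lower, so the members' shares rest on few counts. Under the stricter cell filter Fdft1 there was 0.39 and Insig1 −0.62.

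Proximal tubule cells showed the widest difference of any member, in Idi1. It had 152 CPM in male, 29.6 in female ERaKO and 8.09 in female cells, from 270, 88 and 14 UMIs. The male over female log2 ratio was 4.07 (3.46 to 5.12) and that of female ERaKO over female 1.75 (1.05 to 2.80). A UMI of Idi1 was found in 63.4% of male, 32.1% of female ERaKO and 13.2% of female cells, or 37.4%, 9.78% and 2.20% with cells thinned to 4000 UMIs. The top cell held 7.04% of the male UMIs and 6.82% of those of female ERaKO. In the male library the level stood out in both proximal tubule clusters, with 120 CPM in male, 34.8 in female ERaKO and 9.90 in female cells of the cluster led by Miox, and 293, 27.6 and 6.85 CPM in the one led by Aadat and Napsa. The first held 108 of the 123 male and 49 of the 91 female cells, and the second 15 male and 42 female cells. The clusters thus made up different shares of the class in the male and female libraries. Of the Hmgcs1 UMIs of the class, the first held 562 of 792 in male, 334 of 1401 in female ERaKO and 277 of 663 in female cells. Sqle in female ERaKO over female cells was at −0.95 (−2.29 to 0.21, 10 against 17 UMIs) in the first cluster alone, and at 0.05 in the class.

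The size of the Idi1 ratio depended on which cells were counted. The male ratio was 1.86 with cholesterol and fatty acid genes left out of the clustering and at least that in all 11 other ways of processing. The female ERaKO ratio passed the fold in 8 of 11 and was 0.11 with each library clustered on its own, 0.28 with each cell classed by its own markers and 0.45 with the cholesterol genes left out. The male call for Fdps (21.4 CPM in male and 9.25 CPM in female cells, 1.13) was 0.08 with each library clustered on its own, and that for Fdft1 (0.86) was −0.02. These genes were 3 of 7 higher in the male comparison and 0 were lower, where 21.6% of 9159 genes were higher and 10.5% lower and the median of all genes was 0.20. Between the female libraries Idi1 was the 1 higher of 7 and 0 were lower (9% of 9544 genes higher, 10.3% lower). Hmgcs1 was at 0.22 and 0.30 over female in the male and female ERaKO libraries, close to the all-gene median in the male one. Without Idi1 the summed log2 ratios were 0.25 (0.12 to 0.39) and 0.24 (0.12 to 0.36). Hmgcs1 gave 792 of the 1036 male, 1401 of the 1719 female ERaKO and 663 of the 846 female UMIs of those sums. In the cluster led by Miox alone, Hmgcs1 was at −0.0093 (−0.22 to 0.20) in the male and 0.03 (−0.20 to 0.27) in the female ERaKO comparison.

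The later enzymes in proximal tubule cells went both ways in the male comparison, with 3 of 7 higher and 2 lower. Nsdhl, which acts in demethylation, had 49.6 CPM in male and 19.7 CPM in female cells (1.29, 0.75 to 1.95). Cyp51 had 217 CPM in male and 493 CPM in female cells (−1.18, −1.36 to −1.0), and Ebp, the sterol isomerase, was at −1.31. In the female ERaKO comparison 6 of 9 were higher and 0 lower (median 0.70), with Nsdhl at 0.89 and Cyp51 at 0.68. The sign of Cyp51 thus differed between the 2 comparisons, a difference that was not tested. Fatty acid synthesis genes had a median of −0.67 in the male library (1 of 10 higher, 7 lower), with Scd1 at 36.6 CPM in male and 703 CPM in female cells (−4.23, −4.65 to −3.90), Elovl6 at −3.34, Acly at −1.0 and Me1, which supplies NADPH, at 0.83. Between the female libraries that list had a median of −0.06 (2 of 11 higher, 1 lower). Mylip, a ubiquitin ligase, stood at −1.18 in male and −1.35 in female ERaKO cells, and Lipa, the lysosomal lipase, at 1.08 and −1.06. All these values are over the whole proximal tubule class, whose clusters had different shares in each library. The part of that mix in them was not tested.

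**Figure D4:**
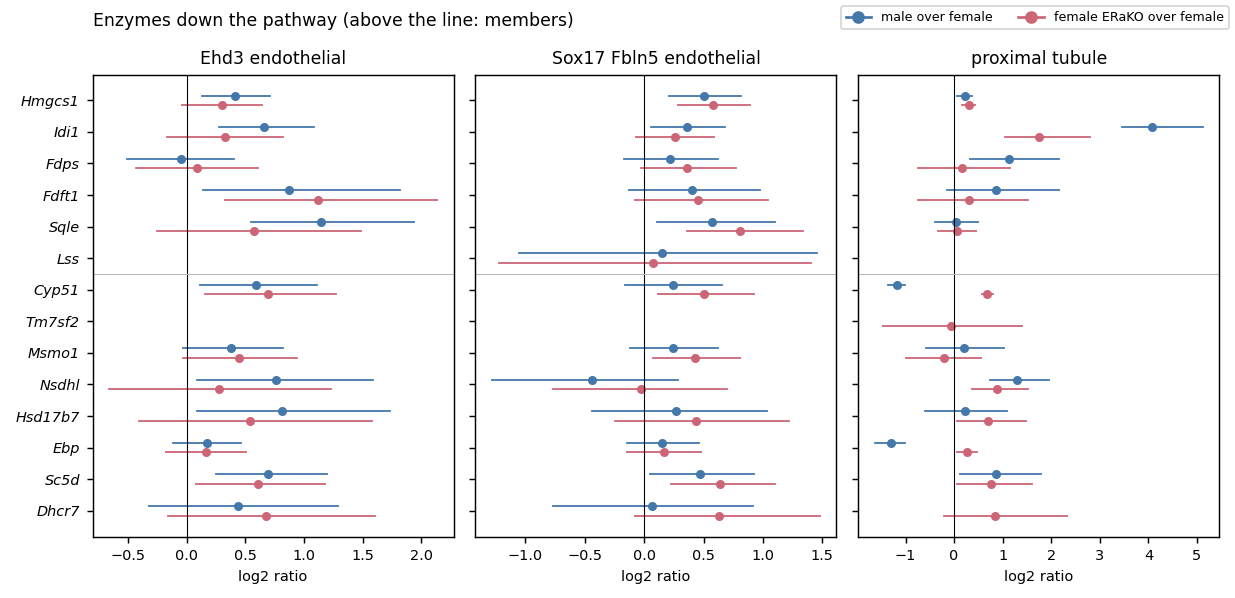
Log2 ratios (horizontal axis) of the enzymes in pathway order (vertical axis, members above the grey line, 8 later enzymes below it) in 3 classes, male over female in blue and female ERaKO over female in red, with 95% counting intervals. Idi1 in proximal tubule cells is at 4.07 and 1.75, and in the same cells Cyp51 lies left of 0 in male (−1.18) and right of it in female ERaKO cells (0.68).

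In podocytes, which gave the largest sums (1207 male, 813 female ERaKO and 1405 female cells), the intervals of the summed ratios included 0. The log2 ratio of the sum was −0.10 (−0.20 to 0.0033) for male and −0.05 (−0.16 to 0.07) for female ERaKO over female. Without Hmgcs1 both intervals lay below 0, at −0.19 (−0.32 to −0.07) and −0.19 (−0.33 to −0.05). Those sums held 871, 584 and 1478 UMIs in male, female ERaKO and female podocytes, of which 129, 93 and 316 were of Fdps. No sum was made without Fdps, so a fall of the remaining genes cannot be read from them. Taken singly, Sqle, Idi1, Fdft1, Lss, Insig1 and Srebf2 each had intervals that included 0 in both comparisons. Fdps had 11.7 CPM in male and 19.3 CPM in female podocytes (−0.68, −1.03 to −0.42), the 1 lower of 8 genes with 0 higher, beside 2.01% of 11586 genes higher and 1.88% lower. In female ERaKO podocytes Fdps had 12.6 CPM (−0.58, −0.96 to −0.27), just inside the fold, so 0 of 8 were higher and 0 lower (2.74% of 11442 genes higher, 3.58% lower). Hmgcs1 was at 0.14 and 0.28, Srebf2 at 0.04 and −0.21 and Insig1 at −0.07 and 0.31 in the male and female ERaKO comparisons. Of the other lists in the female ERaKO comparison, 1 of 9 later sterol enzymes was higher and 0 lower, and the efflux, storage and oxidation list had a median of −0.44 (1 of 9 higher, 2 lower), with the exporter Abca1 at −0.84 and Soat1 at −0.75. Fads1 and Scd1, desaturases, stood at 0.78 and 0.77 and Me1 at −0.74. Immediate early genes had medians of 0.50 and 0.57 in male and female ERaKO podocytes.

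Parietal epithelial cells, in which Sqle was highest, had summed levels of 318, 350 and 320 CPM in male, female ERaKO and female cells, on 122, 208 and 79 cells. In the male comparison 0 of 8 genes were higher and 1 lower, where 11% of 10130 genes were higher and 5.44% lower. The lower one was Idi1, with 15.4 CPM in male and 25.3 CPM in female cells (−0.68, −1.52 to 0.10), a call held in 6 of 10 other ways of processing. In the female ERaKO comparison 0 of 8 were higher and 0 lower (10.2% of 11132 genes higher, 6.69% lower), with Srebf2 at 0.55 (0.15 to 1.0) and Idi1 at −0.56. Sqle stood at −0.06 (−0.45 to 0.33) and 0.0083 (−0.33 to 0.36), and it reached 0.50 in the female ERaKO comparison with each library clustered on its own.

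Mesangial cells, the contractile cells of the stalk, numbered 193, 149 and 51 in the male, female ERaKO and female libraries, and the female sum held 88 UMIs of the 8 genes. In the male comparison 1 of 5 genes was higher (Srebf2, 39.6 CPM in male and 22.6 CPM in female cells, 0.78) and 2 lower (Fdps at −1.17, Insig1 at −1.13), beside 9.31% of 8583 genes higher and 9.72% lower. Of the female ERaKO values, 2 of 6 were higher (Fdft1 at 0.98, from 20 and 3 UMIs, and Srebf2 at 0.94) and 1 lower (Insig1, 10.9 CPM in female ERaKO and 26.4 CPM in female cells, −1.20, −2.36 to −0.15), beside 11.1% of 8979 genes higher and 7.81% lower. Each of these calls but that of Fdps was lost in 1 to 3 of the 10 or 11 other ways of processing. The intervals of the summed ratios held 0, at −0.05 (−0.41 to 0.32) and −0.02 (−0.37 to 0.35). In fibroblasts, with 31 to 38 cells a library, the sums had log2 ratios of −0.21 (−0.77 to 0.34) in the male and −0.59 (−1.18 to −0.0072) in the female ERaKO comparison. The latter interval lay just below 0, on 43 against 63 UMIs, and 17.5% of the female UMIs came from 1 cell. That interval included 0 without Idi1 (−1.07 to 0.235) and without Hmgcs1 (−1.15 to 0.23). In phagocytes the sums were at −0.13 (−0.42 to 0.16) and −0.21 (−0.56 to 0.14). Fibroblast Hmgcs1 had 38.0 CPM in female ERaKO and 74.1 CPM in female cells (−0.95, −2.23 to 0.21, 10 against 19 UMIs), and Idi1 22.8 and 58.5 CPM in those libraries (−1.32, −3.01 to 0.09). Srebf2 in fibroblasts stood at −0.56 in the female ERaKO comparison, and in the male one Hmgcs1 was at −0.18 and Srebf2 at −0.05. In phagocytes Idi1 had 18.4 CPM in female ERaKO and 31.4 CPM in female cells (−0.74, −2.25 to 0.52, 7 against 21 UMIs). Insig1 was the 1 measured gene above the female level in male phagocytes (0.51), where Hmgcs1 stood at −0.55, and in female ERaKO phagocytes it was at 0.45 with Fdps at 0.08. The intervals of every measured gene in these 2 classes include 0.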

How the data were processed

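The deposited matrices hold unnormalised UMI counts, made by the authors with Cell Ranger 6.1.2, STAR 2.7.5a and mm10, per the submitters' processing notes. Parameters and the barcode filter are not given in the sources used here. Barcodes under 500 genes or over 25% mitochondrial UMIs were dropped. Scrublet doublets were removed (112 male, 142 female ERaKO and 53 female cells). Cells were clustered with scanpy 1.11.5 and leidenalg 0.10.2 (30 components of 2000 variable genes, 15 neighbours, resolution 1) and named from fixed markers, with naming minima taken over from an earlier analysis of these data that had seen clusters. Counts were summed per class and library and scaled to CPM. Intervals of ratios are exact conditional Poisson intervals without the pseudocount, and those of levels are exact Poisson ones. With 1 library per group there are no p-values.

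The 8 genes, the other gene lists and the markers were chosen with earlier results of these data known. Members were named in every class. From other lists, up to 3 highest and 3 lowest genes past 1.5-fold with at least 100 UMIs were named, in the lists given. Some genes that met the naming rule are not reported here. The ratio calculation was tested on simulated data. Python 3.11.15 was used.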

Additional observations from a re-analysis of the deposited data

Results flagged for a closer look

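These differences between classes in 1 comparison were noted because the 95% counting intervals of 1 gene in 2 classes lie on opposite sides of 0. With 1 mouse per group the differences were not tested. Fdps in the male over female comparison differed by 2.30 log2 units between proximal tubule cells (1.13) and mesangial cells (−1.17). Insig1 in the same comparison differed by 2.21 between Calca Fabp4 endothelial cells (1.08) and mesangial cells (−1.13). In the female ERaKO over female comparison, Fdps differed by 1.55 between smooth muscle and renin cells (0.97) and podocytes (−0.58). Insig1 in that comparison differed by 1.81 between Sox17 Fbln5 endothelial cells (0.61) and mesangial cells (−1.20). The mesangial values rest on 51 female cells. In the largest proximal tubule cluster alone, the male over female value of Fdps was 0.30 (−0.65 to 1.36), an interval that includes 0. With each library clustered on its own, that of the proximal tubule class was 0.08.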

How the results depend on the processing

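No paired analysis was possible because each group is 1 library, and for the same reason no library could be left out. The median log2 ratios of the measured members in Ehd3 endothelial cells and podocytes moved by less than the counting error under each of the 11 alternatives fixed at the start. Counts of members past 1.5-fold moved. In the male comparison, a pseudocount of 10 CPM gave 1 higher gene in Ehd3 endothelial cells and 0 lower in podocytes. Classing cells by their own markers and thinning each gave 2 higher in Ehd3 endothelial cells. In the female ERaKO comparison, 2 were higher in Ehd3 endothelial cells with a pseudocount of 0.1 CPM, the stricter filter (at least 1000 genes, at most 10% mitochondrial UMIs), doublets kept, cells classed by their own markers, equal weight per cell, or thinning to 4000 UMIs. In podocytes 1 was lower with 0.1 CPM, libraries clustered separately, or thinning, and thinning gave 1 higher in the male and 2 higher in the female ERaKO comparison. Hmgcs1 in proximal tubule cells, male over female, turned to −0.027 (equal weight), −0.14 (thinned) and −0.0093 (the largest cluster alone, an alternative chosen after seeing the data, as were the smooth muscle cluster alone and the Sox17 Fbln5 cells without the Esm1 and Dll4 cluster). The causes were not tested.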

Other observations

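Tubule and lymphoid classes with at least 30 cells in only some libraries entered no comparison of the report. Intercalated cells of the collecting duct had a summed level of the 8 genes of 400 CPM in 63 male cells (95% counting interval 369 to 432) and 258 CPM in 34 female cells (231 to 286). Idi1 in those cells stood at 43.2 CPM in male and 12.7 CPM in female cells, from 67 and 17 UMIs. Principal cells had 150.4 CPM in 53 male and 232 CPM in 39 female ERaKO cells, and 21.1% of the female ERaKO UMIs came from 1 cell. Lymphoid cells with T and NK markers had 242.5 CPM in 44 male and 159 CPM in 42 female cells, with 34.3% of the male UMIs in 1 cell.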
